A study of Mus musculus with 42 samples.

Results

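The genes described here copy DNA or divide the cell, and there are 47 of them, 17 of replication and 30 of mitosis. They were taken as a list of names, matched to the gene symbols that annotate the array probes by a rule that uses no measured value, though the list was drawn up with earlier results of these data known. On the array design that carried the labelled samples, 45 of the 47 had a probe and 40 were measured often enough to test, 16 of replication and 24 of mitosis, among 18904 probes tested in all. Cdt1 and Ccnb1 had no probe there, and Tpx2, Kif2c, Ccnb2, Nek2 and Cdc20 had too many empty values.

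The labelled samples of mouse tissue were 6 of normal skin, 9 papillomas of low risk, 10 of high risk, and 6 squamous cell carcinomas. The normal skins were adult and untreated, with no strain or sex in their labels. All tumours came from adult female Sencar mice initiated at 7 to 8 weeks of age and given DMBA, a mutagen that starts skin tumours, and TPA, a phorbol ester that promotes them; the carcinoma labels add that treatment lasted many weeks. A further 10 papillomas of the same strain, sex and treatment had no risk label and were hybridised on a second design. Every RNA came from whole tissue, so fewer dividing cells and less RNA per cell cannot be told apart. Each was set against a universal mouse reference RNA, and all values below are log2 of sample over reference. Base 2 and this direction are assumed from the labelled dyes and are not stated; were the direction the other, every rise below would be a fall of the same size and every fall a rise, and a share above 0 would be a share below it. A value of 0 is the level of the reference, whose own content of each gene is not given, so values of different genes are not ranked against each other.

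A few features of the arrays touch the results. Arrays fell into 5 sets by the pattern of their empty probes, and 4 of the 6 normal skins lay in set A with 1 high-risk papilloma, while 7 low-risk arrays made up set B and 4 high-risk papillomas made up set E. Only sets C and D held both normal skin, at 1 sample each, and several tumours. The arrays of normal skin 1 and carcinoma 6 were near-identical, with a median difference of 0.07 on the log2 scale, against 0.18 for the next closest pair, so the label of 1 of them may be wrong. The normal skin labelled 1 is the only one of set C, and every comparison with normal skin within that set rests on it. By tumour codes 6 of the 10 high-risk papillomas, in pairs, and 2 of the 9 low-risk ones share a code up to its last letter, and whether such tumours share an animal is not stated. With the shared code as a random block the counts of members called were the same in all 6 comparisons. The correlation estimated for shared codes was -0.019, so that fit stayed close to the main one and cannot show whether such tumours share an animal. Values per array numbered 16286 to 21494, and the number of arrays limits the precision. Krt5, the keratin of basal epidermal cells, lay above 0 in every sample that measured it, from 1.75 to 6.73.

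Cells licensed to divide load a ring of the proteins Mcm2 to Mcm7 on origins of replication, and this ring later unwinds the DNA. Pcna then clamps the polymerases to the template, while ribonucleotide reductase and thymidylate synthase supply the nucleotides. Once the DNA is copied, Cdk1 with its cyclins starts mitosis, kinesins such as Kif11 build the spindle, a checkpoint holds the cell until chromosomes are attached, and the anaphase-promoting complex ends mitosis by marking cyclins for destruction. In skin these genes are on mainly in basal keratinocytes and in the hair follicle, and they are widely used as a sign of proliferation. E2F factors drive many replication genes, and a DREAM or MuvB complex at the element called CHR, often beside CCAAT boxes, times many mitosis genes.

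Replication and mitosis genes differ in promoter letters. RefSeq promoter windows of build GRCm38.p6, from 250 bases before to 50 after the start, were found for 40 of the 47 genes, 15 of replication and 25 of mitosis. They were searched on both strands for TTTCCCGC, TTTGGCGC or TTTCGCGC as E2F letters, which can overlap each other on opposite strands, for TTTGAA as CHR letters and for CCAAT. E2F letters were in the windows of 6 replication genes (40%), namely Cdc6, Cdt1, Mcm3, Mcm5, Mcm6 and Mcm7. They were in 1 mitosis gene (4.0%), Cdk1, and in 2.12% of 27025 genes. CHR letters were in 19 mitosis genes (76.0%) and 2 replication genes (13.3%), Cdc45 and Mcm2, against 20.2% of all genes. CCAAT was in 21 mitosis genes (84.0%), 9 replication genes (60.0%) and 41.1% of all. A match is a description of the letters and shows no binding.

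The 250 bases before the start are shown for the members that passed the test against normal skin and have a window, since these carry the comparisons that follow. Capitals mark the letters searched. Mcm7 (chr5:138171884-138172133, minus strand, the window of 2 that holds E2F letters) and Pcna (chr2:132253181-132253430, minus strand) are replication genes. Ube2c (chr2:164769679-164769928, plus strand), Kif11 (chr19:37376132-37376381, plus strand) and Birc5 (chr11:117848987-117849236, plus strand) are mitosis genes, and Birc5 holds none of the letters.
Mcm7: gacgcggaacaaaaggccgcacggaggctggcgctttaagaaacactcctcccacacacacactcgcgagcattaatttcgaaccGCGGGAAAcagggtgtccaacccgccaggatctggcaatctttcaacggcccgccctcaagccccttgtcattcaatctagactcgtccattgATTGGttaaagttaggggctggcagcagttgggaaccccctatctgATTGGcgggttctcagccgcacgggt
Pcna: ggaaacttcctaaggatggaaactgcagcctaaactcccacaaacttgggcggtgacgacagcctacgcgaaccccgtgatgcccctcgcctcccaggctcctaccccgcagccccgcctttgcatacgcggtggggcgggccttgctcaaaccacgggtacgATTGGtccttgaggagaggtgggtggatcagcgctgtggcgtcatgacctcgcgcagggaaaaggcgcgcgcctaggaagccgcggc
Ube2c: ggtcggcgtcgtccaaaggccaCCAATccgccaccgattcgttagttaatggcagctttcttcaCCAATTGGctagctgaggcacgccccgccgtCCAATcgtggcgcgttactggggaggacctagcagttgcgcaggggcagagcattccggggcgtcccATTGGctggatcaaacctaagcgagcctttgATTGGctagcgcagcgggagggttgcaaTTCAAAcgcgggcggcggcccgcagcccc
Kif11: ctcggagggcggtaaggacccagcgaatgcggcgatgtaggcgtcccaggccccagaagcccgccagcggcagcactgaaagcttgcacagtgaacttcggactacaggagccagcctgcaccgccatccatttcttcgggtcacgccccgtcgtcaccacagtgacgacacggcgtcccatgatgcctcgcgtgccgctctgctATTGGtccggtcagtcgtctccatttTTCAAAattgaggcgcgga
Birc5: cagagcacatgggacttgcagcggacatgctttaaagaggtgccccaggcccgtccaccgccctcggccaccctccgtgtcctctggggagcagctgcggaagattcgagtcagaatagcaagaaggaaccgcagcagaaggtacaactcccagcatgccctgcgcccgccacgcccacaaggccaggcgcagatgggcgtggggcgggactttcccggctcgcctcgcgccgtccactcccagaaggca

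Against normal skin, the division genes lay mostly higher in tumours, and a few of them passed the test. In low-risk papillomas 4 of 40 rose and 1 fell, in high-risk papillomas 2 rose, and in carcinomas 1 rose, by limma at an adjusted p under 0.05 over all probes. Of all probes 3.94% rose and 3.61% fell in low-risk papillomas, 2.57% rose in high-risk papillomas and 0.254% rose in carcinomas. The share of members called was 12.5% in low-risk papillomas beside 7.55% of all probes, 5.00% in high-risk papillomas beside 5.01%, and 2.50% in carcinomas beside 1.16%. The share in high-risk papillomas is at the background, and the count in carcinomas is a single gene, so neither is a result about these genes as a class. The share in low-risk papillomas rests on 5 genes, 1 of them lower, and is not read as such a result either. At an unadjusted p under 0.05 the members numbered 11, 15 and 10, or 27.5%, 37.5% and 25.0%, beside 23.4%, 19.7% and 11.3% of all probes. Among these members 10, 13 and 5 were higher and 1, 2 and 5 lower, so in carcinomas they were evenly split. Differences above 0 were found for 31, 32 and 27 of the 40, or 77.5%, 80.0% and 67.5%, beside 48.7%, 49.7% and 49.8% of all probes. These 3 comparisons share the normal skins. With array set as a block in the limma fit, no member passed in any of the 3, and 5, 12 and 10 probes passed over all genes. Within set C, against the normal skin labelled 1, 21 of 36 members measured in both groups differed in high-risk papillomas in the direction opposite to that over all samples, and 15 of 36 in carcinomas. Within set D, with 1 normal skin, 6 of 33 did so in low-risk papillomas, 11 of 33 in the 1 high-risk papilloma and 5 of 33 in carcinomas.

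**Figure D1:**
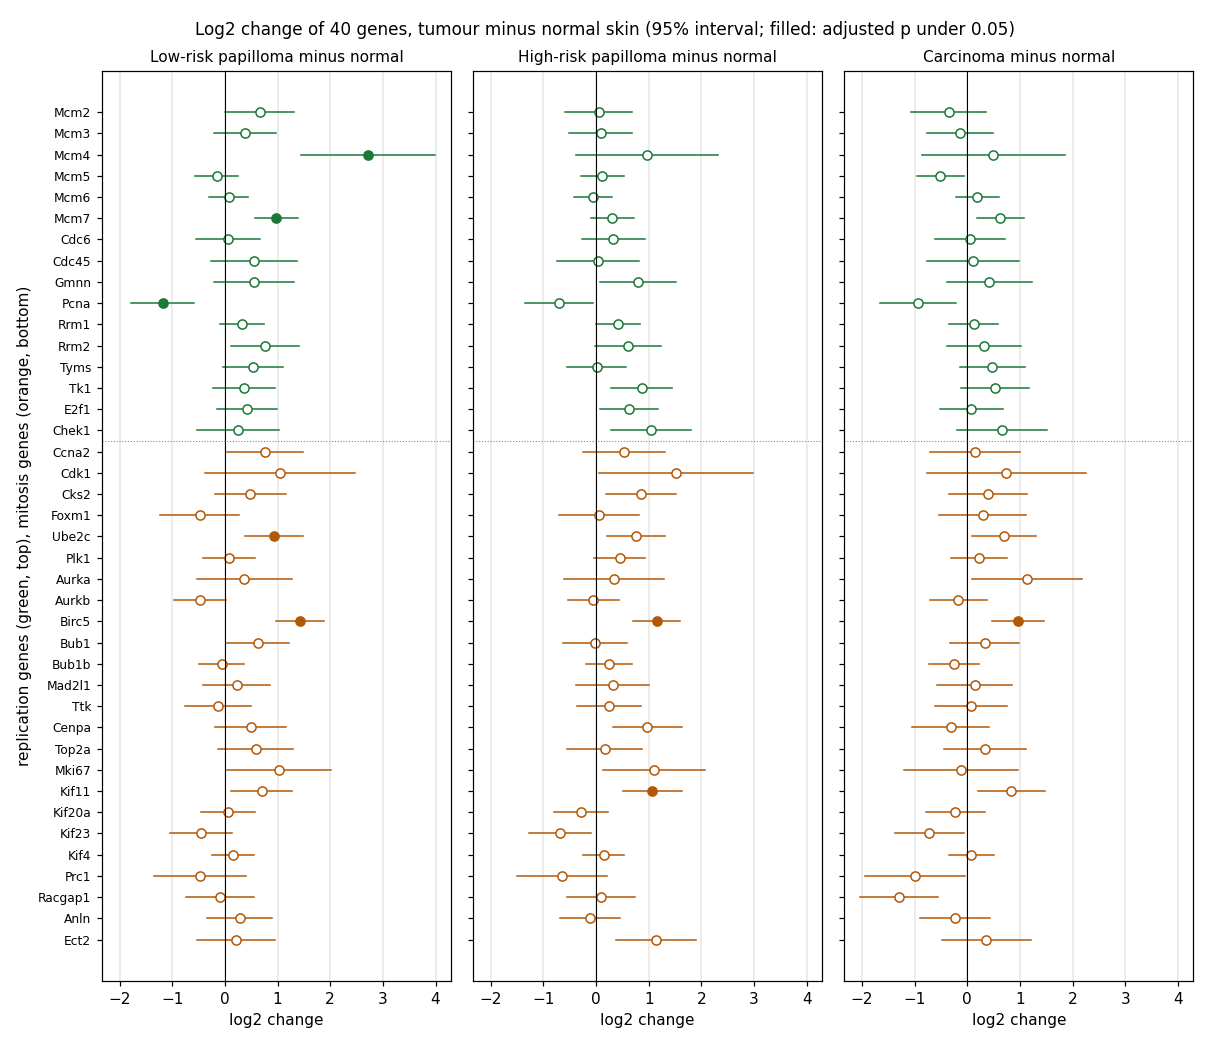
Log2 change of the 40 tested genes (vertical axis, replication above the dotted line, mitosis below) in each tumour group minus normal skin, with 95% intervals from limma; filled points passed at an adjusted p under 0.05. Most points lie right of 0, and Birc5 is the gene filled in all 3 panels.

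Among the helicase subunits, Mcm4 and Mcm7 rose in low-risk papillomas. Mcm4 ranged from 0.27 to 1.5 in normal skin (median 0.80, n = 5) and from 1.54 to 4.86 in low-risk papillomas (median 3.61, n = 8). The ranges did not overlap, as for 1.19% of all probes in this direction. The difference was 2.72 ± 0.62 (SE, limma adjusted p = 0.00832), a fold of 6.60. In high-risk papillomas Mcm4 ran from 0.15 to 4.08 (median 1.17, n = 6) and in carcinomas from 0.15 to 2.04 (median 1.61, n = 6). Those groups overlap normal skin at their low end, and high-risk papillomas 5 and 10, at 4.08 and 3.41, were the only ones above 1.32. These 2 lay in array sets D and A and within the low-risk range. The other 4 high-risk values, from 0.15 to 1.32, were all of set C, where normal skin 1 was 1.495. The 4 high-risk papillomas of set E had no Mcm4 value, and the part of the set in the high-risk values was not tested. Within array set D alone the 3 low-risk papillomas lay 2.68 above the 1 normal skin, and with array sets blocked the difference was 2.33 (adjusted p = 0.678).

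Mcm7 ran from -1.46 to -0.22 in normal skin (median -0.79, n = 6) and from -0.33 to 0.56 in low-risk papillomas (median 0.18, n = 9). High-risk papillomas ran from -1.35 to just under 0 (median -0.43, n = 10) and carcinomas from -0.43 to 0.30 (median -0.16, n = 6). Every low-risk papilloma lay above the mean of normal skin, and only normal skin 2, at -0.22, lay above the lowest of them. The difference was 0.98 ± 0.20 (adjusted p = 0.00357) in low-risk papillomas. It was 0.31 ± 0.20 (adjusted p = 0.405) in high-risk papillomas and 0.63 ± 0.22 (adjusted p = 0.188) in carcinomas. The difference in low-risk papillomas was 0.44 with array sets blocked (adjusted p = 0.899) and 0.19 within set D, where normal skin is 1 sample.

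The other 4 subunits did not pass in any comparison with normal skin. Mcm2 had medians of 0.97 in normal skin, 1.70 in low-risk papillomas, 0.77 in high-risk papillomas and 0.54 in carcinomas. The low-risk papillomas ran from 0.49 to 2.53 and overlapped normal skin, which ran from 0.30 to 1.65, and the difference of 0.66 ± 0.32 had an adjusted p of 0.204. Its values ran from 0.38 to 2.38 in high-risk papillomas and from 0.25 to 1.05 in carcinomas. Mcm3 ran from -0.21 to 0.66 in normal skin (median 0.10, n = 5), -0.32 to 1.24 in low-risk papillomas (median 0.76, n = 8), 0.06 to 0.51 in high-risk papillomas (median 0.35, n = 7) and -1.30 to 0.97 in carcinomas (median 0.13, n = 6), and all groups overlapped. Mcm5 was lower in carcinomas, from -1.11 to -0.17 (median -0.50) beside -0.18 to 0.17 in normal skin (median -0.03), a difference of -0.51 ± 0.22 (adjusted p = 0.341). It ran from -1.001 to 0.78 in low-risk papillomas (median -0.11) and from -0.31 to 0.43 in high-risk papillomas (median 0.14), on both sides of normal skin. Mcm6 medians lay between -0.10 and 0.23 in all groups. Mcm4 and Mcm7 had the same order of group medians, low-risk papillomas, carcinomas, high-risk papillomas and normal skin, and Mcm2 another. Among the 6 subunits the median correlation between pairs over the samples was 0.21.

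Of the genes that load, start or restrain origins, none passed. Cdc6, which loads the ring, had medians between -0.10 and 0.26 in all groups. Cdc45, which activates the ring, had medians of -0.02 in normal skin, 0.38 in low-risk papillomas, -0.09 in high-risk papillomas and 0.15 in carcinomas. Gmnn, the inhibitor of loading, stood at -0.15, 0.60, 0.60 and 0.28 in the same order, with high-risk papillomas from -0.51 to 2.05 and a difference of 0.80 ± 0.36 from normal skin (adjusted p = 0.203), which was -0.29 within set C. Its low-risk values ran from -1.30 to 1.23, on both sides of normal skin.

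Pcna, the sliding clamp, fell where most of the list lay higher. It ran from 0.83 to 1.49 in normal skin (median 1.24, n = 5) and from -1.14 to 1.15 in low-risk papillomas (median -0.08, n = 9). Only low-risk papilloma 7, at 1.15, reached the normal skins. The difference was -1.18 ± 0.29 (adjusted p = 0.0144), and it was -0.94 within array set D and -1.25 with sets blocked (adjusted p = 0.527). High-risk papillomas ran from 0.10 to 1.61 (median 0.21, n = 6), with papilloma 5 at 1.61 and all others under 0.44, and differed by -0.70 ± 0.31 (adjusted p = 0.208). Carcinomas ran from -0.10 to 0.45 (median 0.29, n = 4), below every normal skin, as for 2.33% of all probes in this direction. Their difference of -0.93 ± 0.35 had an adjusted p of 0.248.

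The nucleotide genes were higher in many tumours, without passing. Rrm2, the regulated subunit of ribonucleotide reductase, ran from -0.26 to 0.60 in normal skin (median 0.22) and from -0.13 to 2.01 in low-risk papillomas (median 0.90), a difference of 0.76 ± 0.32 (adjusted p = 0.142). Rrm1, the large subunit, had medians of 0.04, 0.48, 0.44 and 0.22 (normal, low-risk, high-risk, carcinoma). Tk1, which salvages thymidine, ran from -0.74 to -0.06 in normal skin (median -0.29) and from -0.22 to 2.36 in high-risk papillomas (median 0.35), with all 10 papillomas above the normal mean. That difference was 0.87 ± 0.29 (adjusted p = 0.0731), and it passed without high-risk papilloma 6 or 7 (adjusted p down to 0.0459). Low-risk papillomas ran from -0.93 to 0.71 (median 0.11), on both sides of normal skin. Tk1 in carcinomas, from -0.03 to 0.46, lay wholly above normal skin, as for 1.68% of all probes in this direction, with a difference of 0.52 ± 0.32 (adjusted p = 0.607). Tyms, thymidylate synthase, ran from -0.92 to -0.04 in normal skin (median -0.47), -1.31 to 1.02 in low-risk papillomas (median 0.22, n = 8), -1.18 to 0.04 in high-risk papillomas (median -0.43, n = 9) and -0.51 to 0.23 in carcinomas (median 0.03), and all groups overlapped.

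E2f1, a transcription factor of S phase, and Chek1, the kinase that guards stalled forks, were highest on average in high-risk papillomas. For E2f1 that rank rested on high-risk papilloma 10, at 2.06, and the other high-risk values lay at or under 0.72. E2f1 ran from -0.37 to 0.35 in normal skin (median 0.04) and from 0.07 to 2.06 in high-risk papillomas (median 0.54, n = 7), a difference of 0.63 ± 0.27 (adjusted p = 0.182). Low-risk papillomas, from -0.29 to 0.78 (median 0.44, n = 6), and carcinomas, from -0.21 to 0.30 (median 0.09, n = 5), overlapped both. Chek1 ran from 0.15 to 3.16 in normal skin (median 1.38) and from 1.83 to 3.62 in high-risk papillomas (median 2.44), with 10 of 10 above the normal mean. The difference was 1.05 ± 0.37 (adjusted p = 0.10). The normal skin labelled 1, at 3.16, was the highest normal value, and without it the difference was 1.40 and passed (adjusted p = 0.0136). Against that sample alone, within array set C, it was -0.65, the other way. Chek1 ran from 0.73 to 2.41 in low-risk papillomas (median 1.78) and from 0.76 to 3.25 in carcinomas (median 1.97), and both overlapped normal skin.

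Birc5, or survivin, the subunit that brings the chromosomal passenger complex to centromeres, was the member that rose in all 3 tumour groups. It ran from -1.34 to 0.01 in normal skin (median -0.87, n = 6). Low-risk papillomas ran from 0.09 to 1.19 (median 0.67, n = 9), high-risk papillomas from -0.20 to 0.74 (median 0.38, n = 10) and carcinomas from -0.43 to 0.84 (median 0.15, n = 6). Low-risk papillomas did not overlap normal skin, and the highest normal skin, number 1 at 0.01, overlapped the lowest samples of the other groups. The difference was 1.42 ± 0.22 in low-risk papillomas (adjusted p = 0.000301), 1.15 ± 0.22 in high-risk papillomas (adjusted p = 0.00258) and 0.96 ± 0.24 in carcinomas (adjusted p = 0.0433). Without normal skin 1 and carcinoma 6 these were 1.58, 1.31 and 1.15 (adjusted p = 4.68e-05, 0.000351 and 0.00939). The carcinoma difference missed the threshold when 1 of normal skins 2 to 6, carcinomas 1, 3, 4, 5 or 6, high-risk papillomas 7 or 8 or low-risk papilloma 10 was left out, with adjusted p up to 0.144. It also missed it with the replicate number as a block (adjusted p = 0.0727), with the swapped low-risk array left out (adjusted p = 0.0511) or kept as its own sample, and in a fit of only these 2 groups. With array sets blocked the differences were 1.052, 0.979 and 0.759 (adjusted p = 0.582, 0.158 and 0.659). Within set C, against normal skin 1 alone, Birc5 differed by only 0.31 in the high-risk group and 0.18 in carcinomas. Set A, with 1 high-risk papilloma, gave 1.67. Set D, with 1 normal skin, gave 1.05 at low risk, 0.905 for the 1 papilloma of high risk, and 0.77 in carcinomas.

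Its partner kinase Aurkb did not pass and pointed the other way in low-risk papillomas, with values of -0.20 to 0.35 in normal skin (median 0.07), -1.46 to 0.46 in low-risk papillomas (median -0.46), -0.55 to 0.67 in high-risk papillomas (median -0.03) and -0.51 to 0.34 in carcinomas (median -0.16). Aurka, the kinase of spindle poles, ran from -2.32 to -0.01 in normal skin (median -1.95) and from -0.55 to -0.11 in carcinomas (median -0.35, n = 5), a difference of 1.13 ± 0.51 (adjusted p = 0.372). The 2 highest normal skins, 1 and 2, at -0.01 and -0.33, lay in array sets C and D with the carcinomas, and the 4 of set A ran from -2.32 to -1.73. Plk1, a kinase of mitotic entry and cytokinesis, had medians of -0.89, -1.09, -0.67 and -0.71 (normal, low-risk, high-risk, carcinoma).

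Of the genes that start mitosis, none passed. Cdk1 ran from -2.50 to 0.27 in normal skin (median -1.78, n = 5) and from -2.02 to 1.33 in high-risk papillomas (median 0.61, n = 7), a difference of 1.52 ± 0.71 (adjusted p = 0.231). The 4 high-risk papillomas of array set E averaged 0.95, and in the sets shared with normal skin the difference was -0.12 (set A) and -0.45 (set C), with 1 papilloma each. In carcinomas 5 of 6 lay between -1.86 and -0.53 and carcinoma 6 at 2.57. Ccna2, the cyclin of S phase and early mitosis, had medians of -0.19 in normal skin, 0.28 in low-risk papillomas, 0.61 in high-risk papillomas and -0.11 in carcinomas. Cks2, which binds Cdk1, stood at -0.93, -0.44, -0.04 and -0.54 in the same order, and its high-risk difference was 0.86 ± 0.32 (adjusted p = 0.120), which was -0.24 within set C. Foxm1, a transcription factor of mitosis genes, stood at -0.08, -0.68, -0.09 and 0.35.

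Ube2c, the ubiquitin-conjugating enzyme of the anaphase-promoting complex, rose in low-risk papillomas. It ran from -0.73 to 0.94 in normal skin (median -0.26, n = 6) and from -0.21 to 1.36 in low-risk papillomas (median 0.97, n = 9). Apart from normal skin 1, at 0.94, the normal skins lay at or under 0.03, and 8 of 9 papillomas lay above that. The difference was 0.94 ± 0.27 (adjusted p = 0.0298). High-risk papillomas ran from -0.21 to 1.20 (median 0.69, n = 9) and carcinomas from 0.12 to 1.07 (median 0.55). Their differences were 0.75 ± 0.27 in high-risk papillomas (adjusted p = 0.102) and 0.70 ± 0.30 in carcinomas (adjusted p = 0.322). The low-risk call was lost without normal skin 2, 3, 4, 5 or 6 or low-risk papilloma 5 or 10, with adjusted p up to 0.0949. It was also lost with scale or quantile normalization, no centring, the swapped low-risk array left out or kept as its own sample, the range of database number as a block, and a fit of only these 2 groups, at differences of 0.75 to 0.94, and within the middle range of that number, at 0.72. With array sets blocked the difference was 1.06 (adjusted p = 0.711). Among 17 alternatives 7 kept the call.

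The kinesin Kif11, which pushes spindle poles apart, rose in high-risk papillomas. Normal skin ran from -1.07 to 0.42 (median -0.32) and high-risk papillomas from -0.04 to 2.06 (median 0.49). All 10 papillomas lay above the normal mean of -0.35, and normal skin 1, at 0.42, lay among them. The difference was 1.07 ± 0.28 (adjusted p = 0.0229). The 4 papillomas of array set E averaged 1.45 and the 4 of set C averaged 0.11. Within set C the difference from normal skin 1 was -0.31, the other way, and with array sets blocked it was 0.48 (adjusted p = 0.561). The call was also lost in a fit of only these 2 groups (adjusted p = 0.0681) and without normal skin 3, 5 or 6, with adjusted p up to 0.0799. In low-risk papillomas Kif11 ran from -0.07 to 0.92 (median 0.34, difference 0.70 ± 0.28, adjusted p = 0.127) and in carcinomas from 0.07 to 0.77 (median 0.50, difference 0.84 ± 0.31, adjusted p = 0.223).

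Kif4, a chromosome-bound kinesin, had medians between -0.29 and -0.19 in all 4 groups. Kif20a, a kinesin of cytokinesis, had medians between -0.41 and -0.11. Kif23, which with Racgap1 bundles the central spindle, was lower in high-risk papillomas (-0.68 ± 0.29, adjusted p = 0.178) and carcinomas (-0.72 ± 0.32, adjusted p = 0.375). Prc1, another bundler of the central spindle, was lower in carcinomas (-0.99 ± 0.47, adjusted p = 0.406).

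Racgap1, a GTPase-activating protein of the central spindle, had low values in carcinomas but passed in no comparison. It ran from 0.43 to 2.08 in normal skin (median 1.79, n = 5), 0.54 to 2.33 in low-risk papillomas (median 1.27, n = 9), 0.68 to 2.36 in high-risk papillomas (median 1.5, n = 9) and -0.30 to 0.46 in carcinomas (median 0.31, n = 5). Every carcinoma was lower than every papilloma of either risk, as for 0.746% of all probes against the low-risk and 0.503% against the high-risk ones, and carcinoma 5, at 0.46, just overlapped the lowest normal skin. The differences were -1.21 ± 0.32 from low-risk papillomas (adjusted p = 0.0547), -1.40 ± 0.32 from high-risk papillomas (adjusted p = 0.116) and -1.3 ± 0.36 from normal skin (adjusted p = 0.0748).

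Ect2, the exchange factor that Racgap1 helps to recruit, was instead highest in high-risk papillomas. It ran from 0.28 to 2.54 there (median 1.58, n = 8), beside -0.14 to 0.87 in normal skin (median 0.09, n = 5) and -1.21 to 1.15 in low-risk papillomas (median 0.68, n = 9). The difference was 1.13 ± 0.37 from normal skin (adjusted p = 0.0743) and 0.92 ± 0.32 from low-risk papillomas (adjusted p = 0.142). With array sets blocked the second was -0.01. The first passed without normal skin 1, low-risk papilloma 2 or high-risk papilloma 5, 6 or 9 (adjusted p down to 0.0339), and was -0.48 within set C. Carcinomas ran from 0.46 to 0.83 (median 0.57, n = 5), inside the range of normal skin only through normal skin 1, at 0.87. The other normal skins measured lay at or under 0.33. Anln, an actin-binding protein of the cleavage furrow, had medians of 0.66, 1.1, 0.55 and 0.50 (normal, low-risk, high-risk, carcinoma) by the probe tested. Another Anln probe, which was not tested, gave 0.40, 0.31, 0.58 and 0.36 for the same groups, so the probes ranked them differently.

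None of the spindle checkpoint genes passed. Bub1b had medians of 0.40 in normal skin, 0.35 in low-risk papillomas, 0.59 in high-risk papillomas and -0.03 in carcinomas. Mad2l1 stood at 0.52, 0.82, 0.80 and 0.49 in the same order, and Ttk at -0.13, -0.14, 0.07 and 0.18. Bub1 ran from -0.34 to 0.79 in low-risk papillomas (median 0.03) and from -1.07 to -0.24 in normal skin (median -0.36, n = 4), a difference of 0.63 ± 0.29 (adjusted p = 0.176). It ran from -1.80 to 0.06 in high-risk papillomas (median -0.26, n = 8) and from -0.54 to 0.25 in carcinomas (median -0.29, n = 5), and both overlapped normal skin.

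Of the proteins on mitotic chromosomes, Mki67, the antigen of the Ki-67 stain, had the widest spread of the 24 tested mitosis genes in high-risk papillomas. It ran from 0.02 to 0.93 in normal skin (median 0.75), 0.33 to 3.27 in low-risk papillomas (median 1.20), 0.42 to 4.40 in high-risk papillomas (median 1.27) and 0.18 to 0.61 in carcinomas (median 0.53). Both papilloma groups overlapped normal skin and carcinomas at their low end. Its SD was 1.31 in high-risk papillomas and 0.16 in carcinomas. The differences from normal skin were 1.03 ± 0.48 (adjusted p = 0.190), 1.11 ± 0.47 (adjusted p = 0.179) and -0.12 ± 0.53 (adjusted p = 0.984). The 4 high-risk papillomas of array set E averaged 2.89 and the 4 of set C 0.71. Cenpa, the histone of centromeres, ran from -0.52 to 0.10 in normal skin (median -0.01, n = 5), -0.23 to 1.14 in low-risk papillomas (median 0.37), -0.28 to 1.92 in high-risk papillomas (median 1.07) and -0.98 to 0.04 in carcinomas (median -0.30). Both papilloma groups overlapped carcinomas at their low end. Its average was 1.61 in the high-risk papillomas of set E and 0.31 in those of set C. Top2a, which untangles chromosomes, had medians of -0.23, 0.22, 0.18 and 0.17.

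**Figure D2:**
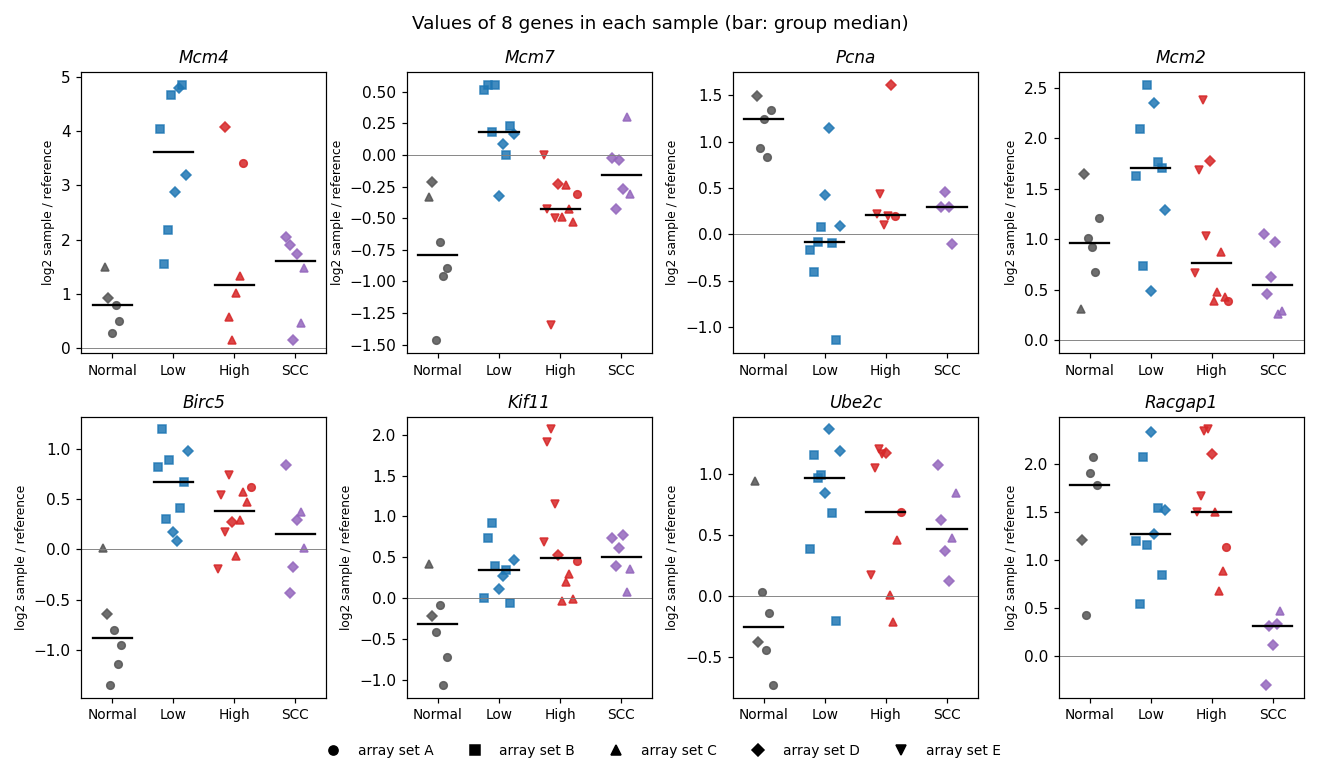
Log2 sample over reference (vertical axes) of 4 replication genes (top) and 4 mitosis genes (bottom) in every sample of the 4 groups (SCC, carcinomas), with the marker shape giving the array set and bars the group medians. Birc5 and Mcm4 of low-risk papillomas lie above all normal skins, and Racgap1 of carcinomas lies under all papillomas.

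The members that could not be tested were given by too few samples. Ccnb2, a mitotic cyclin, had medians of -1.49 in 5 normal skins, -0.62 in 3 low-risk papillomas, -0.61 in 7 high-risk papillomas and -0.37 in 5 carcinomas. Kif2c, a microtubule-depolymerising kinesin, was measured in 2 normal skins and ran down to -8.21 in high-risk papillomas. Tpx2, a spindle assembly factor, was also measured in 2 normal skins, Cdc20, the activator of the anaphase-promoting complex, in 1 normal skin, and Nek2, a centrosome kinase, in 1 carcinoma.

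Between tumour groups no member passed, while 0.667% of all probes passed for high-risk against low-risk papillomas, 1.12% for carcinomas against low-risk papillomas and 0.0423% for carcinomas against high-risk papillomas. By limma at an unadjusted p under 0.05 the members numbered 7, 7 and 6 of 40, or 17.5%, 17.5% and 15%, beside 17.3%, 16.1% and 10.5% of all probes. With array weights in the limma fit 4, 4 and 3 members passed, and 1250, 1546 and 373 of all probes. In high-risk against low-risk papillomas 21 of 40 lay above 0 (52.5%), beside 52% of all probes. In carcinomas 12 of 40 lay above the low-risk papillomas (30.0%) and 9 of 40 above the high-risk papillomas (22.5%), beside 49.4% and 49.1% of all probes. Within set D, with 1 high-risk papilloma, 20 of 40 members differed between high-risk and low-risk papillomas in the direction opposite to that over all samples. In carcinomas 9 of 40 did so there against low-risk papillomas and 9 of 40 against the high-risk papilloma. Within set C 19 of 38 did so in carcinomas against high-risk papillomas.

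Within the high-risk to low-risk comparison, the members with the smallest p included lower helicase genes and higher Ect2 and Chek1. Mcm7 was lower in 10 of 10 high-risk papillomas than the low-risk mean of 0.22, by -0.67 ± 0.18 (adjusted p = 0.0606), and the ranges overlapped above -0.33. Without low-risk papilloma 6 or high-risk papilloma 5 it passed, with adjusted p down to 0.0222. Mcm7 averaged 0.34 in the 6 low-risk papillomas of array set B. Within set D it averaged -0.03 in 3 low-risk papillomas and was -0.23 in the 1 high-risk papilloma. Mcm4 was lower by -1.76 ± 0.59 (adjusted p = 0.134) and passed without high-risk papilloma 5 (adjusted p = 0.0262), but within array set D it was 0.46 higher. Of its 6 high-risk values 4 came from set C, and set E gave none. Chek1 was 0.80 ± 0.33 higher (adjusted p = 0.212), but the difference was -0.53 with array sets blocked. Bub1 was lower by -0.66 ± 0.23 (adjusted p = 0.152). For Birc5 the difference was -0.27, with a 95% interval from -0.66 to 0.13, and for Mki67 it was 0.08, from -0.79 to 0.94, and both intervals hold 0.

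Carcinomas lay under low-risk papillomas in Mcm4 by -2.23 ± 0.59 (adjusted p = 0.0578), in Mcm2 by -1.01 ± 0.32 (adjusted p = 0.0987), in Mki67 by -1.16 ± 0.48 (adjusted p = 0.227) and in Cenpa by -0.80 ± 0.31 (adjusted p = 0.190). Under high-risk papillomas they lay in Cenpa by -1.29 ± 0.30 (adjusted p = 0.117), in Mki67 by -1.23 ± 0.47 (adjusted p = 0.357) and in Mcm5 by -0.63 ± 0.20 (adjusted p = 0.230). Foxm1 was the member furthest above the low-risk papillomas, by 0.77 ± 0.34 (adjusted p = 0.255). Its average was -1.08 in 5 low-risk papillomas of array set B. Within set D it was 0.27 in 3 low-risk papillomas and 0.30 in 4 carcinomas. For Birc5 the difference of carcinomas from high-risk papillomas was -0.19, with an interval from -0.63 to 0.25. Against low-risk papillomas, Racgap1 passed without normal skin 3, low-risk papilloma 2, 6 or 9, or high-risk papilloma 3, 4, 5 or 7, with adjusted p down to 0.0322. Mcm4 passed there without low-risk papilloma 2, 4 or 6 or high-risk papilloma 5 or 10, with adjusted p down to 0.0291, and Mcm2 without low-risk papilloma 6 (adjusted p = 0.0316). Without high-risk papilloma 7, Racgap1 and Cenpa passed against the high-risk papillomas, Racgap1 at 0.0457. Without normal skin 1 or 3, Racgap1 passed against normal skin, at 0.0317 at the lowest, and without the near-identical pair at 0.0470.

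**Figure D3:**
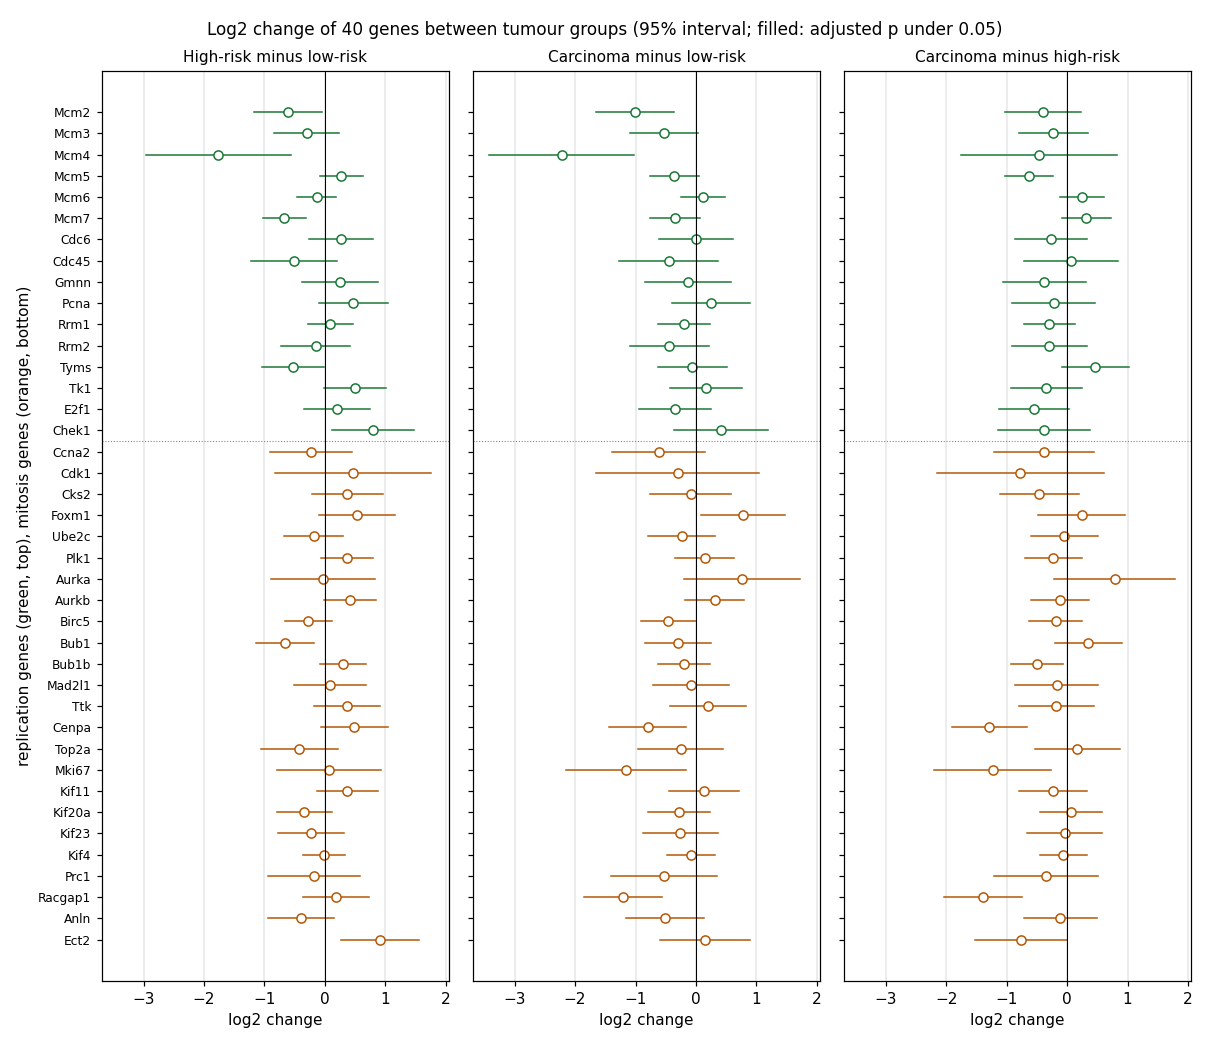
Log2 change of the 40 tested genes (vertical axis, replication above the dotted line, mitosis below) between tumour groups, with 95% intervals from limma; no point is filled, since none passed at an adjusted p under 0.05. Against carcinomas most points lie left of 0, while high-risk minus low-risk points lie on both sides.

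Replication and mitosis genes were then set against each other. Over the tested members, the median change from normal skin was 0.41 for replication and 0.25 for mitosis in low-risk papillomas, 0.32 and 0.28 in high-risk papillomas, and 0.16 and 0.14 in carcinomas, beside medians of -0.017, -0.0043 and -0.0025 over all probes. In carcinomas the medians were -0.27 and -0.24 against low-risk papillomas, and -0.29 and -0.18 against high-risk papillomas. In high-risk against low-risk papillomas they were -0.02 and 0.08. The genes of each list are no replicates, so these medians carry no test.

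The median over the replication members in each sample ran from -0.14 to 0.14 in normal skin (median 0.08), 0.11 to 0.83 in low-risk papillomas (median 0.42), -0.025 to 0.52 in high-risk papillomas (median 0.37) and 0.001 to 0.31 in carcinomas (median 0.17). The median over the mitosis members ran from -0.215 to 0.195 (median -0.11), -0.028 to 0.61 (median 0.29), 0.07 to 0.93 (median 0.36) and -0.12 to 0.23 (median 0.12) in the same order. All groups overlapped in both measures. Replication lay above mitosis in 8 of 9 low-risk papillomas, in 4 of 6 normal skins, in 4 of 6 carcinomas, and in 4 of 10 papillomas of high risk. The difference of the medians was 0.18 at the middle low-risk papilloma and -0.05 at the middle high-risk papilloma. Its median was -0.235 over the 4 high-risk papillomas of array set E and 0.003 over the 4 of set C, and the part of the set in it was not tested. As percentiles among all values of an array, which do not depend on how wide an array's values spread, replication stood at medians of 55.3, 68.1, 66.5 and 64.2 and mitosis at 43.2, 59.8, 67.4 and 58.5.

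**Figure D4:**
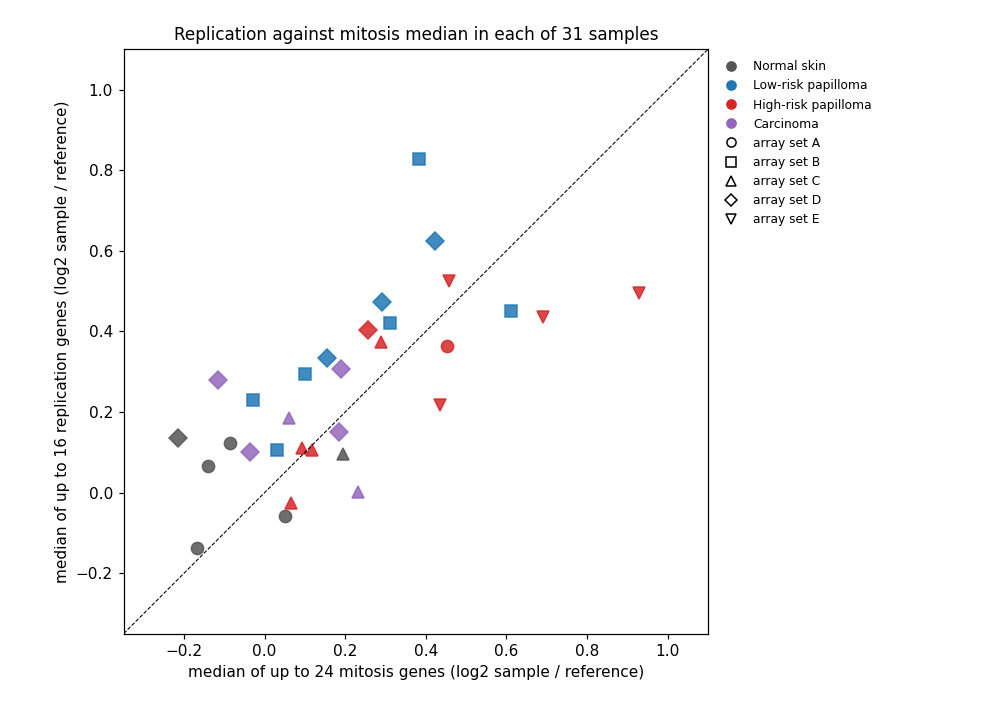
Median of the replication genes (vertical axis) against the median of the mitosis genes (horizontal axis) in each of 31 samples, log2 sample over reference, with colour giving the group, shape the array set, and the dashed line equality. Of the 9 low-risk papillomas 8 lie above the line, and 3 of the 4 high-risk papillomas of set E lie under it.

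Members also varied within groups. The median SD of a replication gene was 0.32 in normal skin, 0.61 in low-risk papillomas, 0.53 in high-risk papillomas and 0.26 in carcinomas, and for a mitosis gene it was 0.39, 0.61, 0.62 and 0.32. Array sets B and E, which hold papillomas only, had the widest values over all probes, with a median SD per array of 1.57 and 1.59 as deposited, beside 0.70 to 1.04 in the other sets. Width also varied within a group, since high-risk arrays had SDs of 0.45 to 0.78 in set C and 1.51 to 1.72 in set E, and its part in the members' spread was not tested. The highest group mean was in high-risk papillomas for 18 of 40 members and in low-risk papillomas for 15, and the lowest was in normal skin for 23 and in carcinomas for 10.

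The members did not move as 1 block across samples. Over up to 31 samples the median correlation was 0.08 between replication genes (120 pairs), 0.08 between mitosis genes (276 pairs) and 0.12 between a gene of each (384 pairs), and with group means removed it was 0.07, 0.09 and 0.08. Over the 17 members measured in every sample it was 0.17, beside 0.03 over 4210 such genes. The highest pair was Gmnn with Ect2 at 0.80, followed by Rrm1 with Kif11 at 0.74 and Aurkb with Cdc6 at 0.74. The lowest was Cdc45 with Cdc6 at -0.72. The members most like the others were Mki67, with a median correlation of 0.33, Gmnn at 0.32 and Rrm1 at 0.30. The samples of a pair share arrays, array set and group, so these correlations are descriptions.

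Other genes of the same pathways came from lists of 48 for replication and 62 for mitosis. Their counts against normal skin stand beside 7.55% of all probes called in low-risk papillomas, 5.01% in high-risk papillomas and 1.16% in carcinomas. Of 43 tested replication genes, 2 rose and 2 fell in low-risk papillomas against normal skin, and 1 fell in each of the other tumour groups. The gene that fell in all 3 was Orc6, a subunit of the origin recognition complex, with differences of -2.42 ± 0.39 (adjusted p = 0.000592), -2.06 ± 0.39 (adjusted p = 0.00324) and -2.35 ± 0.44 (adjusted p = 0.00660) in low-risk, high-risk and carcinoma samples. Ticrr, which starts origins, and Prim2, a primase subunit, rose in low-risk papillomas by 0.94 and 1.29, and Pold2, a polymerase subunit, fell by 0.90. Of 45 tested mitosis genes, 1 rose and 1 fell in low-risk papillomas, 3 rose and 1 fell in high-risk papillomas, and 1 rose in carcinomas. H2az1, a histone H2A variant, rose in all 3, by 0.90, 1.31 and 1.00, and Nuf2, a kinetochore protein, fell by 1.295 in low-risk and 1.436 in high-risk papillomas. Ncapd2, of condensin, and Cdc25c, the phosphatase that turns on Cdk1, rose in high-risk papillomas by 1.61 and 0.73. Between tumours only Spc24, another kinetochore protein, was called, lower in carcinomas than in low-risk papillomas by -1.29 ± 0.26 (adjusted p = 0.0149). In that comparison 1.12% of all probes were called. None of 17 tested genes of E2F and retinoblastoma control passed in any of the 6 comparisons by limma, and 1 or 2 had an unadjusted p under 0.05 in 5 of these and 0 in the other.

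Markers of other cell types moved with the groups, and their part in these results was not tested. Against normal skin 3 of 10 hair follicle markers fell in each tumour group, Krt34, Krt33a and Krt71, and the mean of the list in a sample ran from 0.39 to 2.09 in normal skin, -0.35 to 1.61 in low-risk papillomas, 0.15 to 0.76 in high-risk papillomas and 0.07 to 0.40 in carcinomas. Of 11 skeletal muscle markers 2 fell in each papilloma group. The list means ran from 0.09 to 1.96 in normal skin, -0.33 to 0.81 in low-risk papillomas, -0.15 to 0.88 in high-risk papillomas and 0.12 to 0.74 in carcinomas, so all groups overlapped. Of 10 basal keratinocyte markers 2 fell in each papilloma group, Krt15 and Lama3, and 1 in carcinomas, Krt15. Against normal skin 5 of the 10 lay higher in low-risk papillomas, 6 in high-risk papillomas and 4 in carcinomas. The list means ran from 1.051 to 2.55, 0.72 to 1.98, 0.56 to 2.89 and 0.50 to 1.07 (normal, low-risk, high-risk, carcinoma). Of 11 suprabasal markers 2 were lower in carcinomas than in low-risk papillomas, and list means ran from 0.79 to 1.63, 1.12 to 3.03, 0.74 to 2.27 and 0.15 to 1.18. Of 10 T cell markers Cd2 rose in both papilloma groups, while Cd3e and Cd8a fell in low-risk papillomas, and list means ran from -0.01 to 0.33, -0.10 to 0.68, -0.05 to 0.39 and -0.07 to 0.28. In carcinomas against low-risk papillomas 9 of 10 macrophage markers lay higher, with a median change of 0.73 and 1 called, Lyz1, and 11 of 12 fibroblast markers lay higher, with a median change of 0.55 and none called by limma, against 4 at an unadjusted p under 0.05. The macrophage means ran from -0.88 to -0.28, -1.80 to -0.23, -1.27 to -0.14 and -0.33 to 0.89 (normal, low-risk, high-risk, carcinoma), and the fibroblast means from -0.97 to -0.47, -2.39 to 0.07, -2.02 to 0.02 and -0.57 to 0.46. Of the fibroblast markers Dcn fell in high-risk papillomas against normal skin, while 8 of the 12 lay higher there, with a median change of 0.22. Of 8 adipocyte markers Fabp4 and Lipe rose and Retn fell in low-risk papillomas, and Lep fell in the other tumour groups, with list means of -0.11 to 0.45, 0.04 to 1.06, -0.79 to 0.58 and 0.12 to 0.48. Of 10 endothelial markers Pecam1 fell in low-risk papillomas, while 5 of the 10 lay higher there than in normal skin.

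In the 10 papillomas without a risk label, 46 of the 47 genes had a probe on the second design, all but Ccnb1. These samples belong to no group here, so only their values are given. The replication median of a sample ran from -0.05 to 1.09 (median 0.36) and the mitosis median from -0.17 to 0.90 (median 0.37). Replication lay above mitosis in 5 of the 10. By the probe kept for each gene, 30 of the 46 genes had a median above 0, 7 had every value above 0 and 3 had every value below 0.

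By the kept probes, Tk1 ran from 1.49 to 4.32 (median 1.90) and Cdt1 from 1.02 to 2.91 (median 1.73). Ccna2 ran from 1.00 to 4.72 (median 2.06) and Cenpa from 0.92 to 4.75 (median 1.54). Every papilloma measured lay above the reference by these probes. Another probe of Tk1 ran from -1.015 to 2.912, and another of Cenpa from -1.475 to 1.003. Kif11 ran from 0.08 to 3.07 (median 1.36), Mcm4 from 0.18 to 2.79 (median 1.07) and Birc5 from -0.63 to 2.11 (median 0.53). Every value of the kept probe lay below the reference for Mcm7, from -1.41 to -0.15 (median -1.01), Mcm2, from -2.72 to -0.03 (median -0.95), and Ccnb2, from -2.14 to -0.64 (median -1.31). Another probe of Mcm7 ran from -2.447 to 0.562. Pcna spread from -0.62 to 3.35 (median 0.50) and Mki67 from -0.92 to 3.31 (median 1.16). Probes of 1 gene often differed on this design: over 43 pairs of probes of 21 genes the median correlation across the papillomas was 0.22, from -0.66 to 0.91, and the median difference between such probes was 0.78 on the log2 scale. Levels on the 2 designs are therefore not compared.

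**Figure D5:**
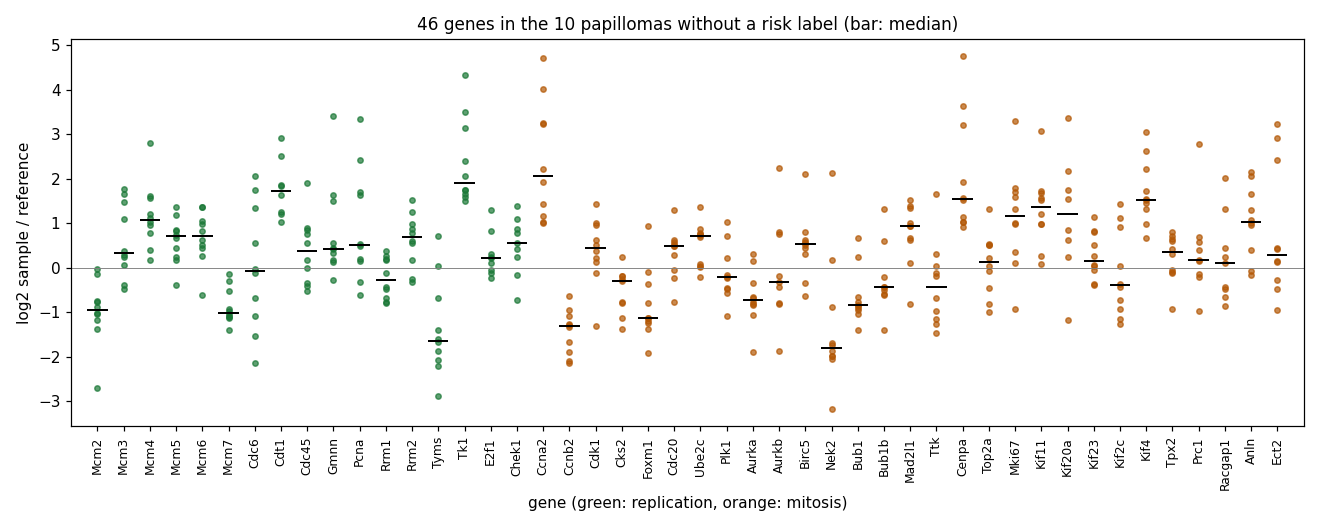
Log2 sample over reference (vertical axis) of 46 genes (horizontal axis, replication green, mitosis orange) in the 10 papillomas without a risk label, 1 probe per gene, with bars at the medians. Tk1, Cdt1, Ccna2, Cenpa, Kif4, Kif11 and Mcm4 lie wholly above 0, and Mcm2, Mcm7 and Ccnb2 wholly below.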

How the data were processed

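The authors deposited log ratios of the 2 channels of each array, taken here as log2, and per the labels Cy5 marked the reference and Cy3 the tissue, except on low-risk array 3, which has the dyes swapped. The ratio's log base and direction are not given in the sources used here, nor are background correction, normalization and spot filters. The sign was turned on all arrays but that one, and each array was centred on its median. Low-risk arrays 1 and 3 hold the same tumour by their labels and were averaged, although they correlated at 0.306 across probes, which left 31 replicates from 32 arrays.

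Probes were named from the platform annotation (16076 of 21997 with 1 symbol, 288 with several, 5633 with none). A probe was tested when each group had 3 or more replicates with a value and 70% of all replicates did, with the most often measured probe kept per symbol. The 4 groups were fitted in 1 model with limma 3.58.1 in R 4.3.3, and p-values were adjusted by Benjamini-Hochberg over 18904 probes, at 0.05. The fit was tested on simulated data. Tumour codes alike up to the last letter (6 high-risk, 2 low-risk) were tried as a random block. Whether those share an animal is not stated in the labels, so p-values measure the spread between these samples. Tables were made with pandas 2.3.3 and numpy 2.4.6. The members and gene lists were chosen with earlier results of these data known. Values in every group are given for called members and, in each comparison, for the 3 members of each list with the smallest p, and any member may be named with its change. Of the other pathway genes, those called are named. Alternatives were other scalings, filters, probe summaries, treatments of the swapped array, blocks, weights, single array sets, and leaving out each replicate. The single array sets were added after the data were seen.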

Additional observations from a re-analysis of the deposited data

Results flagged for a closer look

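Of 160 combinations of a member and a group, 11 (6.88%) held a sample whose gap to its nearest neighbour was large for the group's range by Dixon's criterion, which chance alone gives in about 1 of 20 groups.
Of these, 7 lay in high-risk papillomas. Chek1 was 3.62 in high-risk papilloma 2. Tk1 was 2.36 and Kif20a -1.63 in high-risk papilloma 1. Cdc45 was 2.14 and E2f1 2.06 in high-risk papilloma 10, Pcna was 1.61 in high-risk papilloma 5, and Mcm7 was -1.35 in high-risk papilloma 3. In low-risk papillomas Top2a was 2.57 in papilloma 9 and E2f1 -0.29 in papilloma 2. In carcinoma 6, one of the near-identical arrays, Cdk1 was 2.57, while the other array of that pair, normal skin 1, gave 0.27. Kif4 was -0.96 in normal skin 1.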

How the results depend on the processing

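Counts of members called, out of the members tested, moved with several settings. Against normal skin the counts were 5, 2 and 1 (low-risk, high-risk, carcinoma). They were 0, 0 and 0 with the array set as a block, within set D (1 normal skin, so few could pass), and with only arrays of the middle range of database number, and 0 and 0 for high-risk papillomas and carcinomas within set C or with the range of database number as a block. They were 13, 10 and 11 with array weights, while 4150, 3961 and 3454 of all 18904 probes passed in that fit. High-risk papillomas gave 7 within set A (1 papilloma, assumed to vary like the normal skins), 7 without the near-identical pair, 5 with quantile normalization and 1 with only the 2 groups compared. Carcinomas gave 2 without that pair, with scale normalization or with only the 2 groups compared, 3 with quantile normalization, and 0 with the swapped array left out, with it as its own sample or with the replicate block. Low-risk papillomas gave 2 among probes measured in every replicate. The replicate block moved no other call count by over 1.5 times, and the replicate numbers did not pair the samples: same-numbered samples correlated at a median of -0.02 over 37 pairs and others at 0.01 over 317. Leaving out each sample in turn gave counts of 4 to 5, 1 to 6 and 0 to 2, with 6 without normal skin 1, and between tumours 0 to 2 (high-risk against low-risk), 0 to 3 (carcinomas against low-risk) and 0 to 2 (carcinomas against high-risk).

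Between tumours, where no member passed, high-risk against low-risk papillomas gave 1 among probes measured in every replicate, 1 with the swapped array as its own sample and 4 with array weights. Carcinomas against low-risk papillomas gave 4 with array weights, 2 with the range as a block and 1 within its middle range. Carcinomas against high-risk papillomas gave 3 with array weights, 2 with quantile normalization, and 1 with the range as a block or within its middle range.

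Median changes of replication members moved to -0.34 (array weights) and 0.18 (probes in every replicate) in high-risk against low-risk papillomas. In carcinomas against low-risk papillomas they moved to -0.10 (probes in every replicate), -0.085 (scale) and -0.075 (quantile). Against high-risk papillomas they moved to -0.0348 (array weights) and 0.087 (set C). Against normal skin they moved to 0.19 (set D) and 0.18 (range block) in low-risk papillomas, to 0.14 (set block), 0.11 (set D) and -0.073 (set C) in high-risk papillomas, and to -0.0295 (set C) in carcinomas. Those of mitosis members moved to -0.13 (set block) and 0.37 (probes in every replicate) in high-risk against low-risk papillomas, to -0.12 (set C) in high-risk papillomas against normal skin, and to -0.11 (middle range) and -0.19 (range block) in carcinomas against normal skin.

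Among the 36 changes followed under every alternative, those that turned sign were, in high-risk against low-risk papillomas, Ect2 (-0.00690) and Chek1 (-0.53) with the set block and Ect2 (-0.11), Aurkb (-0.0503), Mcm4 (0.46) and Chek1 (-0.19) within set D. Against normal skin within set C they were Kif11 (-0.31), Ect2 (-0.48) and Chek1 (-0.65) in high-risk papillomas and Kif11 (-0.21) in carcinomas. The cause was not tested.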
